A study of Mus musculus with 8 samples.

Results

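Bone marrow cells sorted as prepro NK cells (preproNK) that lacked the transcription factor Nfil3 were compared with wild-type preproNK by gene expression arrays. The name is that of a progenitor stage on the way to natural killer cells. The comparison rests on 4 of the 8 arrays of the study, those labelled prepro, with 2 from Nfil3 knockout (KO) and 2 from wild-type (WT) animals. The other 4 arrays, 2 WT and 2 KO samples of all-lymphoid progenitors (ALP), an earlier stage, served the estimate of the spread, the choice and filtering of probe sets and the binning of genes by level. In both genotypes the mice carried an Id2-GFP reporter, in which green fluorescent protein marks cells that use the Id2 gene, and cells were sorted by flow cytometry from marrow depleted of lineage-positive cells and lysed without culture. Every RNA sample went through 23 amplification cycles before labelling. Replicates 1 and 2 were processed on different dates, so each date holds 1 WT and 1 KO preproNK array, called the replicate 1 pair and the replicate 2 pair. The sources used here give neither the surface markers of the prepro gate, the number or age of the mice, nor the part of Nfil3 that was deleted. In bulk RNA, fewer cells of a type and less RNA per cell cannot be told apart. Nothing says that replicates came from separate animals, so p-values here cover just the sample-to-sample spread, part of which may be technical.

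Nfil3 is a basic leucine zipper transcription factor that binds short sites also used by the PAR bZIP factors of the circadian clock. It is known as a factor without which mice make few conventional natural killer (NK) cells, and it also acts in the common precursors of innate lymphoid cells (ILC). NK cells kill infected or transformed cells through perforin and granzymes and depend on interleukin 15. Group 2 innate lymphoid cells (ILC2) depend on Gata3 and respond to interleukins 25 and 33. Interleukin 17-producing gamma delta T cells, here called gamma delta T17, arise in the thymus under Sox13, carry Ccr6 and use Blk, a Src family kinase. All of these cells can use Id2, so an Id2 reporter alone does not part them.

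Of 17097 genes with a probe set of a single symbol, 11583 were bright enough to be tested. A gene counts as differing alike in both pairs where KO minus WT has the same sign and reaches 1 log2 in each pair, with the smaller difference at least 0.5 of the larger. This is a description and not a test. The value tested is the KO minus WT difference of group means in limma, with Benjamini-Hochberg adjustment over the 11583 genes. A value under the median of all probe sets on its array is called near background.

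The WT replicate 2 array had a narrow range of values, and it bears on every result. It held 310 tested genes at a log2 value of 8 or more, against 1256 on WT replicate 1, 1390 on KO replicate 1 and 1350 on KO replicate 2. The ALP arrays of replicate 2 also held fewer such genes than those of replicate 1, with 682 against 1216 in WT and 884 against 1498 in KO. Across tested genes WT preproNK replicate 1 correlated with KO preproNK replicate 1 at 0.960 and with WT preproNK replicate 2 at 0.621. When genes were sorted into 10 bins by their mean level in ALP, the median KO minus WT difference ran from -0.62 in the dimmest bin to 1.64 in the brightest in the replicate 2 pair, but only from -0.04 to 0.07 over the bins of the replicate 1 pair. Bright genes were thus on the whole higher in KO in the replicate 2 pair, and a difference quoted for 1 pair alone is named as such.

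**Figure D1:**
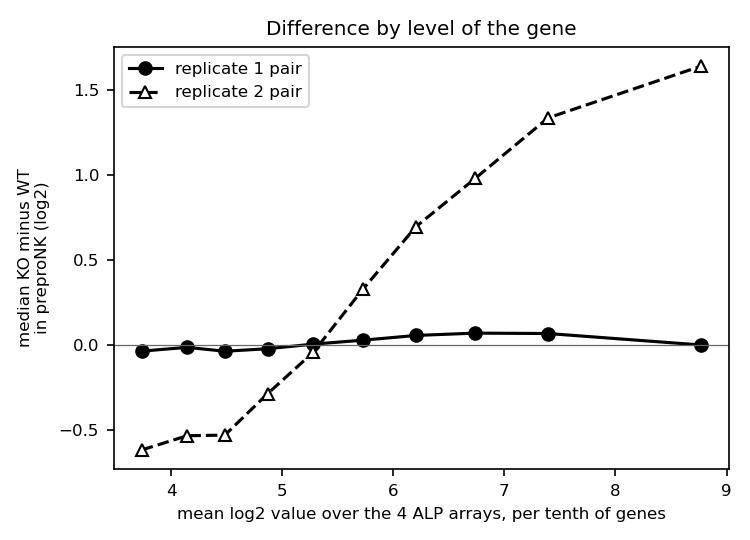
Median KO minus WT difference in preproNK (log2, vertical axis) against the mean log2 value over the 4 ALP arrays for 10 bins of equal size of the 11583 tested genes (horizontal axis), with filled circles for the replicate 1 pair and open triangles for the replicate 2 pair. The replicate 2 line climbs from -0.62 to 1.64 while the replicate 1 line stays between -0.04 and 0.07.

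By limma 0 of 11583 genes were called at an adjusted p under 0.05 (0.0%), with 522 genes higher in KO (4.51%) and 103 lower (0.889%) at an unadjusted p under 0.05. Once the replicate number entered the fit as a block, limma called 10 genes higher in KO (0.0863%) and 0 lower (0.0%). They were Sox13, Cd55, Klrc1, S1pr1, Sit1, Actn2, Cd247, Cst7, Ehd3 and S100a6, each with a limma adjusted p of 0.0457 in that fit. Cd55 was above the array median on the 2 KO preproNK arrays alone, so it entered the test only through the group where it was high. The count depended on which WT array was kept. Without WT replicate 1 the narrow-range array is the lone WT sample, assumed to vary like the other groups, and 2013 genes were called higher (17.4%) and 519 lower (4.48%), and without WT replicate 2 the count was 0. With WT replicate 2 left out and the block kept, 27 genes were called higher (0.233%) and 20 lower (0.173%).

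In both pairs alike, 183 genes were higher in KO (1.58%) and 32 were lower (0.276%). After quantile normalization of the deposited values the split was 134 higher and 49 lower, after cyclic loess 166 and 58, and after centring each array on its median 204 and 18. Of the 183, 28 had both WT arrays near background, 24 of which were above the median in no group but KO preproNK and so were tested only for being high there, and in 126 the replicate 2 difference was the larger. Another probe set existed for 99 of the 215 genes, and in 30 of these another one also differed by at least 1 log2 with the same sign in both pairs. In the replicate 1 pair alone, 334 genes were higher by at least 1 log2 (2.88%) and 214 lower (1.85%), against 3723 (32.1%) and 1571 (13.6%) in the replicate 2 pair.

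**Figure D2:**
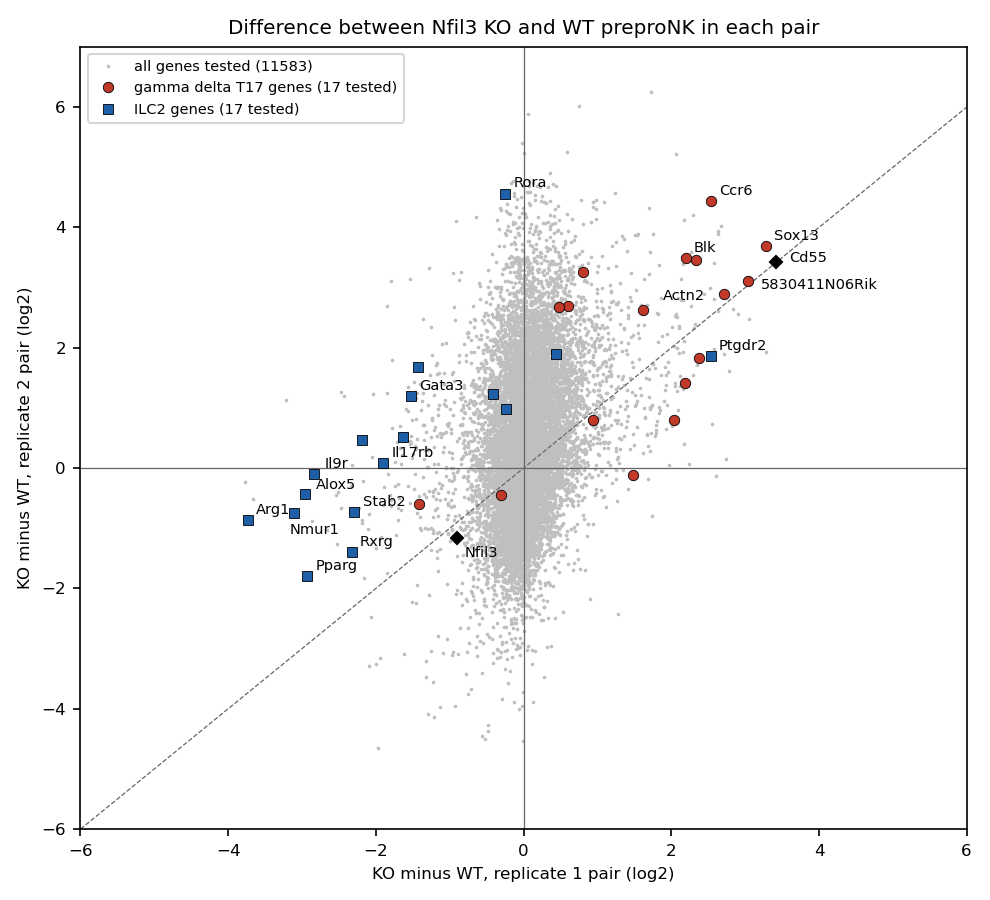
KO minus WT difference in preproNK in the replicate 1 pair (log2, horizontal axis) and the replicate 2 pair (log2, vertical axis) for the 11583 tested genes (grey), with gamma delta T17 genes as red circles, ILC2 genes as blue squares, Nfil3 and Cd55 as black diamonds and equal differences on the dashed line. Many red circles lie far out at the upper right, as with Sox13 at 3.28 and 3.69, while ILC2 genes spread to the left at differences down to -3.73 in the replicate 1 pair.

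Short stretches of the promoters of 2 genes are shown because they are the only ones among the genes higher in KO in both pairs that hold the known NFIL3 binding word. The words searched, on both strands, were TTACGTAA, which reads the same on either strand, and TTATGTAA, which reads TTACATAA on the other. The windows are 300 bases around the annotated start sites from RefSeq on GRCm38.p6, and the word found is in capitals. For Ccr6, a chemokine receptor, the window is chr17:8235793-8236092 on the plus strand with the word at position -36 from the start site. For Stk38, a serine-threonine kinase, the window is chr17:29007946-29008245 on the minus strand with the word at -245.
Ccr6: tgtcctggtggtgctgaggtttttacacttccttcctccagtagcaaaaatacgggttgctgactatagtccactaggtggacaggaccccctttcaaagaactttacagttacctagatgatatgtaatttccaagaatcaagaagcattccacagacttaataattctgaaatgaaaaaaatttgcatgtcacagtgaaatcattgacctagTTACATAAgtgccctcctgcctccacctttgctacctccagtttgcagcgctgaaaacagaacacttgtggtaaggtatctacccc
Stk38: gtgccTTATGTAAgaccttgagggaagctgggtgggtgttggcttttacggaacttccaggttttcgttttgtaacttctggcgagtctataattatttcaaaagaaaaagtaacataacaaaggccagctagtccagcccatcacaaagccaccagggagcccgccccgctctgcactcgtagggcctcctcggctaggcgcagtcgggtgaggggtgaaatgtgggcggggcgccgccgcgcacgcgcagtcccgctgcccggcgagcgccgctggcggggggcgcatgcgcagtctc
Of the genes higher in KO in both pairs, 143 had a window and 2 held either word (1.4%), against 76 of 9345 tested genes with a window (0.813%) and 333 of 27018 genes in the whole table (1.23%). Of 27 genes lower in both pairs with a window, 0 held it. The shares rest on few genes and were not tested, and the letters say nothing of binding in these cells.

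Nfil3 itself was at 4.75 and 4.74 on the WT arrays (replicates 1 and 2, the order kept throughout) and at 3.84 and 3.57 on the KO arrays. Both KO values were near background and the groups did not overlap. The differences were -0.91 and -1.17, with a limma difference of -1.04 (SE 0.52, adjusted p = 0.613). WT preproNK thus showed a modest Nfil3 level, and without the position of the deletion the probe set is no full check of the labels.

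The label was set against markers, which were mixed, so preproNK here names the sort and not a proven cell type. Il2rb, the chain by which NK progenitors bind interleukin 15, and Klrb1c, which encodes NK1.1, were above background on all 4 arrays. Klrb1c was at 5.84 and 5.96 in WT and at 5.96 and 6.35 in KO. On the ALP arrays Klrb1c was nearly as high, at 5.38 and 5.71 in WT and at 5.21 and 5.44 in KO. Its level thus hardly sets preproNK apart from the earlier stage. Il2rb was lower in ALP, at 3.87 and 4.68 in WT and at 3.78 and 3.91 in KO. In preproNK, Ncr1, which encodes NKp46 and defines committed NK cells, was at 3.89 and 4.01 in WT and at 3.28 in both KO arrays, below the median of each array. Klra1 and Klra8, Ly49 receptors of mature NK cells, lay between 2.56 and 3.23 on the 4 arrays, and Eomes, the T-box factor of conventional NK cells, was at 4.04 and 5.73 in WT and at 4.38 and 4.46 in KO. By contrast Cd3e, a T cell signal chain, was at 8.48 and 6.59 in WT and at 9.99 and 10.45 in KO. Cd3g was at 8.27 and 4.69 in WT, the latter close to that array's median of 4.27, and at 10.34 and 9.91 in KO. Id2, the gene behind the reporter, was at 10.68 and 8.37 in WT and at 10.48 and 9.86 in KO, and differed by -0.20 in the replicate 1 pair.

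**Figure D3:**
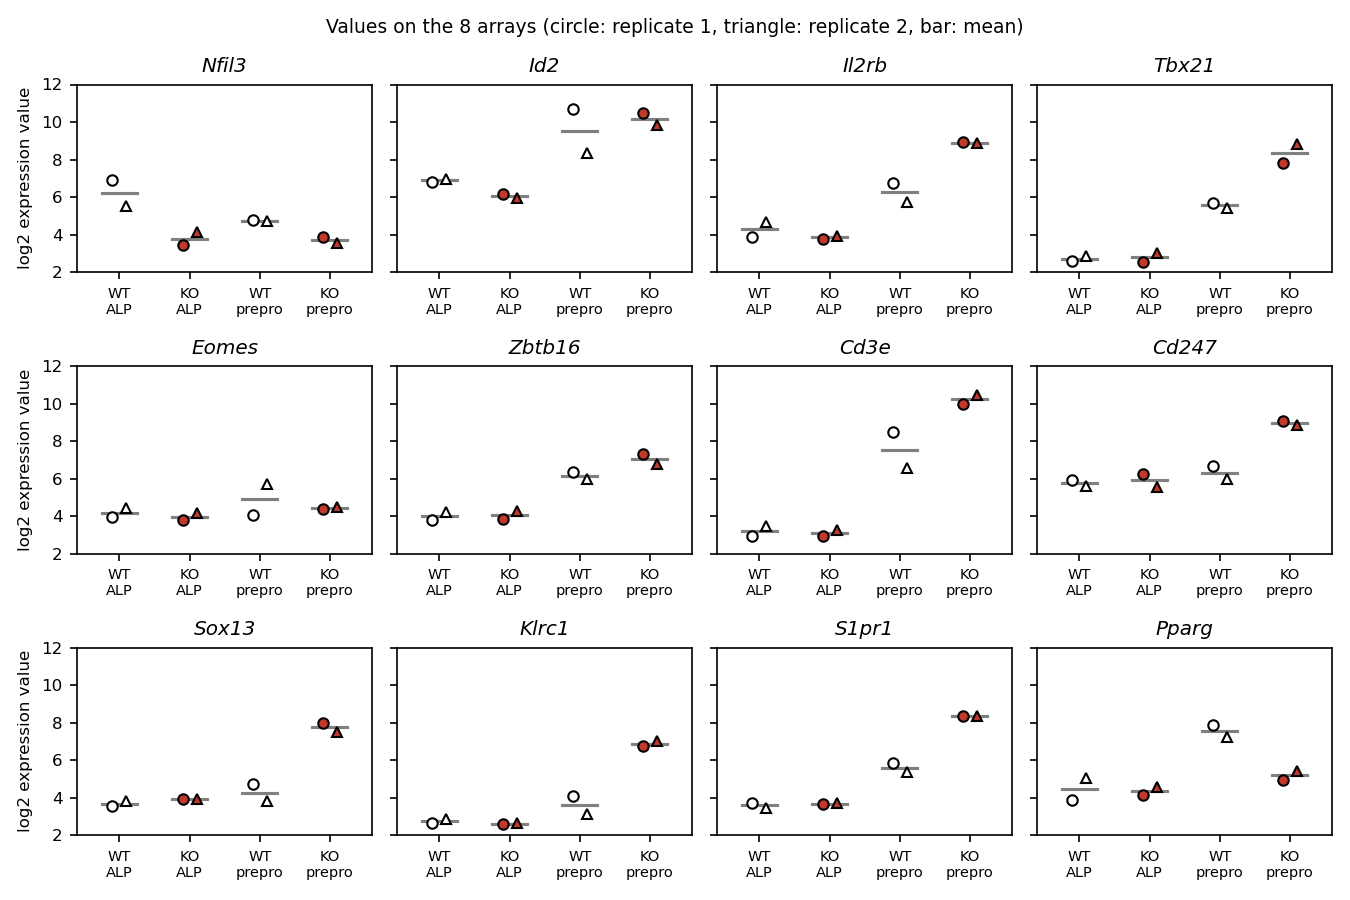
Log2 expression values of 12 genes on the 8 arrays, by genotype and population, with circles for replicate 1, triangles for replicate 2, filled symbols for KO and grey bars for group means. Sox13, Klrc1, S1pr1, Cd247, Il2rb and Tbx21 are higher on both KO preproNK arrays than on both WT ones, Pparg is lower on both, and Id2 and Eomes overlap between the genotypes.

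The gamma delta T17 genes had the highest median of the lists in the replicate 1 pair. The lists were chosen with earlier results of these data known, so this rank is a description only. Of 17 tested members (18 of 21 had a probe set), 9 were higher in KO alike in both pairs (1.58% of all tested genes) and 0 lower, and 11 were higher by at least 1 log2 in the replicate 1 pair (2.88% of all) against 1 lower. The list's median difference was 2.03, and 2.04 in the replicate 1 and 2.68 in the replicate 2 pair, against 0.15, 0.01 and 0.29 over all tested genes. KO was higher in the replicate 1 pair for 15 of the 17 (51.3% of all tested genes) and in the replicate 2 pair for 14 (57.6%), and both KO arrays lay above both WT arrays for 14 (22.7%). Under the 3 other normalizations the median stayed between 1.83 and 2.08 in the replicate 1 pair and between 1.52 and 2.94 in the replicate 2 pair, with 7 to 10 members higher alike and up to 1 lower.

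Sox13, the transcription factor that directs this lineage, was at 4.72 and 3.80 in WT and at 7.999 and 7.49 in KO. WT replicate 2 was near background, so KO was at least 9.52-fold higher, and the limma difference was 3.49 (SE 0.43, adjusted p = 0.16, or 0.0457 with the block). 5830411N06Rik, which encodes a scavenger receptor of the group that marks these cells, was at 7.47 and 7.06 in WT and at 10.51 and 10.17 in KO, a difference of 3.08 (SE 0.42, limma adjusted p = 0.16). The pairs differed by nearly the same amount, 3.04 and 3.12, although 1 of them holds the narrow-range array. Its relative Cd163l1, also called Scart1, was at 6.94 and 6.82 in WT and at 9.31 and 8.65 in KO, and its other probe set differed by 2.73 and 3.27. Ccr6, the receptor that takes these cells to skin and gut, was at 7.12 and 4.85 in WT and at 9.66 and 9.29 in KO. Its replicate 2 difference of 4.44 exceeded the 2.53 of replicate 1. Blk was at 8.32 and 6.63 in WT and at 10.51 and 10.13 in KO, so it was already bright in WT replicate 1.

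Receptors for the cytokines that drive these cells went the same way. Il18r1, the interleukin 18 receptor chain, was at 8.04 and 6.54 in WT and at 9.66 and 9.17 in KO. Il17re, a chain of the interleukin 17C receptor, was at 5.95 and 6.35 in WT and at 8.13 and 7.77 in KO, and its other probe set differed by 1.97 in each pair. Il1r1, the interleukin 1 receptor, was at 4.26 and 5.33 in WT and at 6.30 and 6.13 in KO, higher by 2.04 and 0.80 and so not alike by the ratio. For all 3 receptors both KO arrays lay above both WT arrays, as they did for 22.7% of all tested genes. Aqp3, a water and glycerol channel, differed by 2.34 and 3.45, but its other probe sets, which were dimmer, differed by -0.10 to 0.22. Actn2, an actinin, was at 5.66 and 5.07 in WT and at 8.36 and 7.96 in KO. Its limma difference was 2.80 (SE 0.39, adjusted p = 0.16, or 0.0457 with the block).

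Not every gene of the list went along. Zbtb16, which encodes PLZF, differed by 0.94 and 0.80, and its other probe set by 0.90 and 3.73. Maf, another transcription factor of the lineage, differed by 0.60 and 2.70. Tmem176b, already at 10.32 on WT replicate 1, differed by 0.48 there. Sox4 was lower by a small amount, with differences of -0.31 and -0.45, and Ltb4r1, a leukotriene receptor, by more, with -1.42 and -0.60. The cytokine gene Il17a, which these cells make once stimulated, was between 2.49 and 2.98 on the 4 arrays, near background on each. Il23r had no single-symbol probe set and was not analysed here.

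**Figure D4:**
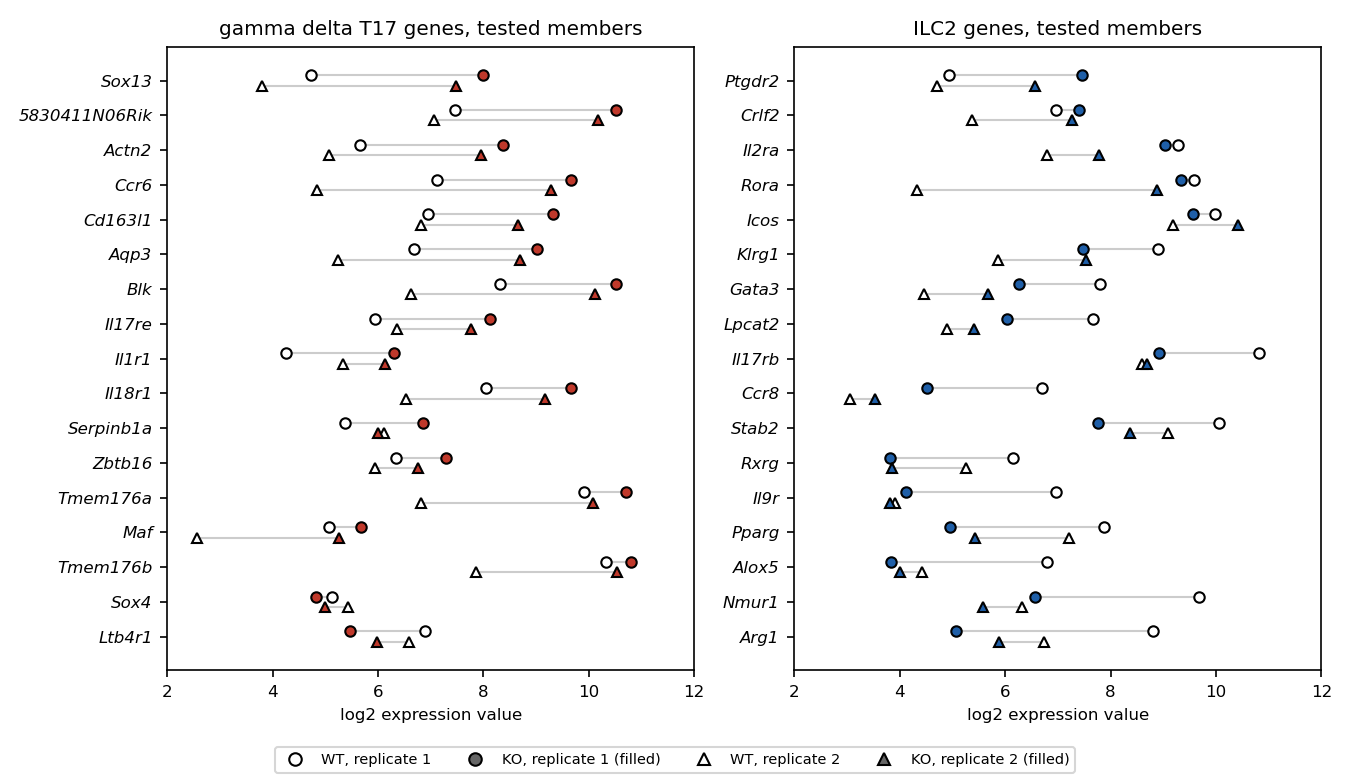
Log2 expression values of the tested gamma delta T17 genes (left, red) and ILC2 genes (right, blue) on the 4 preproNK arrays, with circles for the replicate 1 pair, triangles for the replicate 2 pair, open symbols for WT and filled for KO, joined within a pair. On the left, 14 of 17 genes have both KO symbols to the right of both WT symbols, and on the right the open circles of WT replicate 1 lie far to the right of the other symbols for genes such as Nmur1, Arg1 and Il9r.

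CD3 chains and genes of T cell receptor signalling were higher in KO for many members. Of 29 tested members (31 of 33 had a probe set), 9 were higher alike in both pairs (1.58% of all tested genes) and 0 lower (0.276%). In the replicate 1 pair 13 were higher by at least 1 log2 (2.88% of all) and 0 lower (1.85%), and 13 had an unadjusted p under 0.05, all higher (4.51% of all). The list's medians were 0.60 and 1.93 in the pairs, against 0.01 and 0.29 over all tested genes. Cd247, the zeta chain, was at 6.65 and 5.98 in WT and at 9.09 and 8.87 in KO. Its limma difference was 2.67 (SE 0.42, adjusted p = 0.188, or 0.0457 with the block), though 1 of its other probe sets differed by only 0.05 and 0.35. Cd3d was at 7.42 and 6.37 in WT and at 9.51 and 8.87 in KO. Cd3e differed by 1.51 and 3.87 and Cd3g by 2.07 and 5.23, so their larger replicate 2 differences kept them out of the alike count. Both KO arrays lay above both WT arrays for 17 of the 29 tested members (22.7% of all tested genes), these 4 CD3 genes among them.

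Surface receptors and adaptors of T cells went with the chains. Cd28, the main costimulatory receptor, was at 4.38 and 4.60 in WT and at 7.004 and 7.20 in KO. The differences of 2.63 and 2.61 are nearly equal, and the other probe set differed by 1.53 and 1.904. Cd5, a negative regulator of T cell receptor signals, was at 5.13 and 5.02 in WT and at 8.41 and 6.94 in KO. Sit1, an inhibitory adaptor, was at 4.81 and 4.58 in WT and at 7.65 and 7.23 in KO. Its limma difference was 2.74 (SE 0.36, adjusted p = 0.16, or 0.0457 with the block). Cd2, Cd6, Zap70 and Txk completed the 9 alike members, with differences from 1.09 to 2.29 in the replicate 1 pair. Other signalling genes were near level in that pair, as with Prkcq at 0.03, Lcp2 at 0.32, Fyn at 0.47 and Themis at -0.20, and Skap1 (-0.72) and Tespa1 (-0.70) were lower there. In the replicate 2 pair these 6 genes were higher in KO, by 1.62, 2.20, 2.77, 2.54, 1.38 and 1.39. Cd4 was at 6.49 on both WT arrays and at 7.77 and 7.29 in KO, while Cd8a differed by 0.22 and -0.85.

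The transcription factors of the NK and T lineages were mostly near level in the replicate 1 pair. Of 30 tested members, 2 were higher alike in both pairs (1.58% of all tested genes) and 0 lower (0.276%), and the medians were 0.12 and 1.41 (0.01 and 0.29 over all). Tbx21, the gene of the T-box factor T-bet, was at 5.67 and 5.42 in WT and at 7.84 and 8.82 in KO, with a limma difference of 2.78 (SE 0.44, adjusted p = 0.188, or 0.0596 with the block). Klf2, which keeps lymphocytes quiescent and turns on exit receptors, was at 6.25 and 4.89 in WT and at 8.19 and 7.12 in KO. Elsewhere in the list Ets1 (-0.18), Stat4 (-0.19), Ikzf1 (-0.00), Bcl11b (0.13) and Runx3 (0.36) were within 0.5 log2 of no difference in the replicate 1 pair, but were higher in KO by 2.78, 1.80, 1.88, 1.26 and 1.22 in the replicate 2 pair. Gfi1, a repressor, was at 7.04 and 4.23 in WT and at 5.36 and 4.56 in KO, with differences of -1.68 and 0.33. Among genes of innate lymphoid precursors, 1 of 15 tested was alike, Il18r1, and the medians were 0.13 and 1.49.

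NK receptors differed as a few members of a list of largely dim genes. Of 22 with a probe set 15 were tested, 4 were higher alike in both pairs (1.58% of all tested genes) and 0 lower (0.276%), and the medians were 0.11 and 1.69. Klrc1, which encodes the NKG2A chain, was at 4.10 and 3.13 in WT and at 6.73 and 7.02 in KO, at least 6.46-fold higher. Its limma difference was 3.26 (SE 0.42, adjusted p = 0.16, or 0.0457 with the block). Its other probe set, dimmer, differed by 0.20 and 0.29. Klrd1, the CD94 partner of that chain, was at 3.36 and 2.82 in WT, near background, and at 4.92 and 4.99 in KO, and it passed the filter only through the KO preproNK arrays. Klrk1, the activating receptor NKG2D, was at 5.62 and 4.48 in WT and at 7.79 and 7.26 in KO, and Klrb1f was at 6.58 and 5.12 in WT and at 8.01 and 7.97 in KO. Both KO arrays lay above both WT arrays for 7 of the 15 tested members (22.7% of all tested genes), these 4 among them. Probes of the Klr families can share targets. Among adaptors that carry NK receptor signals, Tyrobp differed by -0.19 and 4.22, Fcer1g by 0.11 and 1.79 and Hcst by 0.64 and 1.69. Klrg1 was lower there by the largest amount in the list (-1.43 and 1.69).

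Cytotoxic effectors and cytokines were mixed. Of 21 tested members 7 were higher alike (1.58% of all tested genes) and 0 lower (0.276%), and the medians were 0.33 and 1.48. Cst7, an inhibitor of granule cathepsins, was at 5.47 and 4.57 in WT and at 8.05 and 7.39 in KO. Its limma difference was 2.70 (SE 0.60, adjusted p = 0.418, or 0.0457 with the block). Ctsw, Nkg7 and Ccl5, genes of cytotoxic granules and chemokine release, differed by 1.59, 1.63 and 1.46 in the replicate 1 pair and by 2.72, 3.15 and 2.78 in the replicate 2 pair. The cytokine gene Tnf differed by 1.74 and 1.05. Ifng differed by 1.33 and 1.48, but was near background on both WT arrays and passed the filter only through the KO preproNK arrays. Gzmb was at 4.23 and 4.10 in WT and at 5.70 and 5.86 in KO. Prf1, which encodes perforin, was at 8.39 and 8.61 on the replicate 1 arrays and thus level at a bright value, and at 6.12 and 8.36 on the replicate 2 arrays. Gzma was higher in the replicate 1 pair only, by 2.60 against -0.13. Csf2, the gene of a growth factor that ILC2 also release, was lower in both pairs, with differences of -1.22 and -0.81.

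Receptors for interleukins and interferon gamma were higher in KO for 4 of 24 tested members alike (1.58% of all tested genes) and lower for 0 (0.276%), with medians of 0.54 and 1.41. Il2rb was at 6.77 and 5.76 in WT and at 8.91 and 8.90 in KO, a limma difference of 2.64 (SE 0.46, adjusted p = 0.264). Its 2 other probe sets also differed by 1.46 and 1.75 in the replicate 1 pair, so in that pair all 3 probe sets had KO above WT by over 1 log2. Ifngr1 was at 8.50 and 6.74 in WT and at 10.33 and 10.12 in KO. Il2ra, which with Il2rb forms the high-affinity interleukin 2 receptor, differed by -0.24 and 0.98, Il15ra by -0.89 and -0.03 and Il6st by -1.34 and 0.30.

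Trafficking receptors were higher for 4 of 17 tested members alike (1.58% of all tested genes), with medians of 0.49 and 2.10. S1pr1, by which lymphocytes leave tissues, was at 5.83 and 5.34 in WT and at 8.35 and 8.33 in KO. Its limma difference was 2.76 (SE 0.36, adjusted p = 0.16, or 0.0457 with the block). Cxcr3, a receptor for chemokines induced by interferon gamma, was at 7.82 and 5.99 in WT and at 10.09 and 9.59 in KO, and Klf2 and Ccr6 were the other 2 members. Klf2 is known to turn on S1pr1, and the 2 genes were both higher in KO, but a link between them was not tested. Ccr9, which guides cells to thymus and gut, went the other way in the replicate 1 pair, at 9.23 in WT and 6.91 in KO, but was level in the other (5.76 and 5.81). Itga4 differed by -1.30 and 1.05.

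S100 proteins and annexins and the GIMAP GTPases, which are abundant in differentiated lymphocytes, form 1 list. Of 22 tested members 4 were higher alike (1.58% of all tested genes), and the medians were 0.89 and 2.75. S100a6 was at 6.22 and 4.23 in WT and at 8.89 and 8.25 in KO, and it was joined by Anxa2, Ahnak and Vim. The limma difference of S100a6 was 3.35 (SE 0.68, adjusted p = 0.337, or 0.0457 with the block). S100a4, S100a11, Lgals1, Lgals3 and Crip1 differed by 1.06 to 1.71 in the replicate 1 pair and by more in the other. Of the GIMAP genes in the replicate 1 pair, Gimap4 differed by 1.40, Gimap5 by -1.24 and the other 6 by between -0.33 and 0.32. In the replicate 2 pair all 22 members of the list were higher in KO (57.6% of all tested genes), 21 of them by at least 1 log2 (32.1%).

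Some genes higher in KO lie outside the lists or in small families. Cd55, which protects cells from complement, had the largest positive difference of the replicate 1 pair, at 2.99 and 2.40 in WT and at 6.41 and 5.83 in KO. WT was near background, so KO was at least 3.95-fold higher, and the other 2 probe sets differed by -0.03 to 0.51. Dtx1, a Notch target and regulator, was at 5.73 and 4.37 in WT and at 8.36 and 8.31 in KO, while its other probe set differed by 1.34 and -0.34. Slamf1 and Cd40lg, a receptor and a ligand of activated T cells, differed by 2.72 and 1.91 and by 2.58 and 1.98. Ehd3, a protein of membrane recycling named here after its values were seen, was at 5.30 and 5.12 in WT and at 8.35 and 7.59 in KO, and its other probe set differed by 2.93 and 3.06. Hopx, a homeodomain protein of effector lymphocytes, was likewise named after its values were seen, and was at 4.08 and 4.51 in WT and at 6.98 and 7.07 in KO.

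ILC2 genes were lower in KO in the replicate 1 pair, and only there as a list. Of 17 tested members (21 of 25 had a probe set), 12 were lower by at least 1 log2 in that pair (1.85% of all tested genes) and 1 was higher. In the replicate 2 pair 2 were lower by that much (13.6% of all) and 6 higher (32.1% of all), and the medians were -1.91 and 0.47. Alike in both pairs, 2 were lower (0.276% of all tested genes), Pparg and Rxrg, and 1 was higher, Ptgdr2. After quantile normalization 5 were lower alike and after cyclic loess 3, with replicate 1 medians of -2.01 and -1.96. The median difference over both pairs was -0.85, and 0.81 without WT replicate 1. Both KO arrays lay below both WT arrays for 5 of the 17 (16.5% of all tested genes).

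Pparg, a nuclear receptor of lipid metabolism that ILC2 use, was at 7.88 and 7.22 in WT and at 4.95 and 5.43 in KO. The groups did not overlap, and the limma difference was -2.36 (SE 0.50, adjusted p = 0.372, or 0.125 with the block). With the block and without WT replicate 2, which leaves 1 WT array, the limma adjusted p was 0.0277. Rxrg, which encodes a partner of such receptors, was at 6.14 and 5.25 in WT and near background in KO, at 3.81 and 3.85. Arg1, the arginase of ILC2, was at 8.81 and 6.74 in WT and at 5.07 and 5.87 in KO, with differences of -3.73 and -0.87. Stab2, a scavenger receptor, was at 10.06 and 9.09 in WT and at 7.77 and 8.36 in KO. For Arg1 and Stab2 the groups did not overlap, but the replicate 2 difference was far smaller.

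For several other ILC2 genes WT replicate 1 stood alone. Nmur1, the receptor by which nerves activate ILC2, was at 9.68 on it and at 6.32, 6.57 and 5.57 on WT replicate 2 and the KO arrays. Alox5 was at 6.79 against 4.42, 3.83 and 3.997, and Il9r, the interleukin 9 receptor, at 6.96 against 3.91, 4.11 and 3.81. Il17rb, the interleukin 25 receptor, was at 10.83 against 8.60, 8.92 and 8.69, and so remained bright in KO. Gata3, which every ILC2 needs, was at 7.79 and 4.46 in WT and at 6.27 and 5.67 in KO. Rora, the other lineage factor, did not follow this pattern and was at 9.58 and 9.33 on the replicate 1 arrays and 8.89 on KO replicate 2, and at 4.32 on WT replicate 2. Ptgdr2, the prostaglandin D2 receptor CRTH2, went against the list, at 4.93 and 4.70 in WT and at 7.46 and 6.56 in KO. The type 2 cytokine genes Il5, Il13 and Il4 were near background on all 4 arrays.

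Genes lower in KO alike in both pairs numbered 32, and 9 of them had both KO arrays near background. Of these 9, 6 were above the median in no group but WT preproNK and so were tested only for being high there. Lrrc52, an accessory subunit of potassium channels and 1 of those 6, was at 5.16 and 5.32 in WT and at 3.09 and 2.84 in KO, with a limma difference of -2.27 (SE 0.35, adjusted p = 0.185). Asph, a hydroxylase gene, was at 5.13 and 5.62 in WT and at 2.96 and 3.80 in KO, and Tmem273 and Nol4l differed by -1.85 and -1.74 and by -1.46 and -2.25. Dimmer probe sets of Lrrc52 and Tmem273 differed by between -0.65 and 0.01, and those of Asph by between -1.58 and 0.45. Speer3, Speer4b, Speer8-ps1 and Orly are multicopy genes whose copies can share probes, and they were higher on the replicate 2 array in each genotype. Mycn, a Myc family factor of early progenitors, was at 7.74 and 7.25 in WT and at 6.50 and 6.23 in KO. Hlf, a PAR bZIP factor of stem cells that binds the same sites as Nfil3, was lower by less in the second pair, with differences of -1.40 and -0.82. The other PAR bZIP genes, Dbp and Tef, differed by -0.21 and -0.83 and by 0.01 and -0.52, and the clock list as a whole had 0 members alike and medians of -0.10 and -0.39.

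Genes of the cell cycle, metabolism and interferon response had medians of at most 0.30 in size in the replicate 1 pair. Mitosis and DNA replication genes had medians of 0.30 and 0.11 in the replicate 1 pair and of 1.37 and 1.36 in the other, with 1 and 0 members alike. In mitosis genes KO replicate 2 was the highest of the 4 arrays, as with the proliferation marker Mki67, at 7.29 and 5.78 in WT and at 7.35 and 9.06 in KO. Oxidative phosphorylation genes had medians of 0.16 and 1.94 and ribosomal protein genes of -0.12 and 1.05, the latter reaching -0.90 in the replicate 2 pair after cyclic loess. Glycolysis genes were at -0.01 and 1.06, interferon response genes at -0.07 and 1.10 and SLAM, TNF family and survival genes at 0.01 and 0.74.

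**Figure D5:**
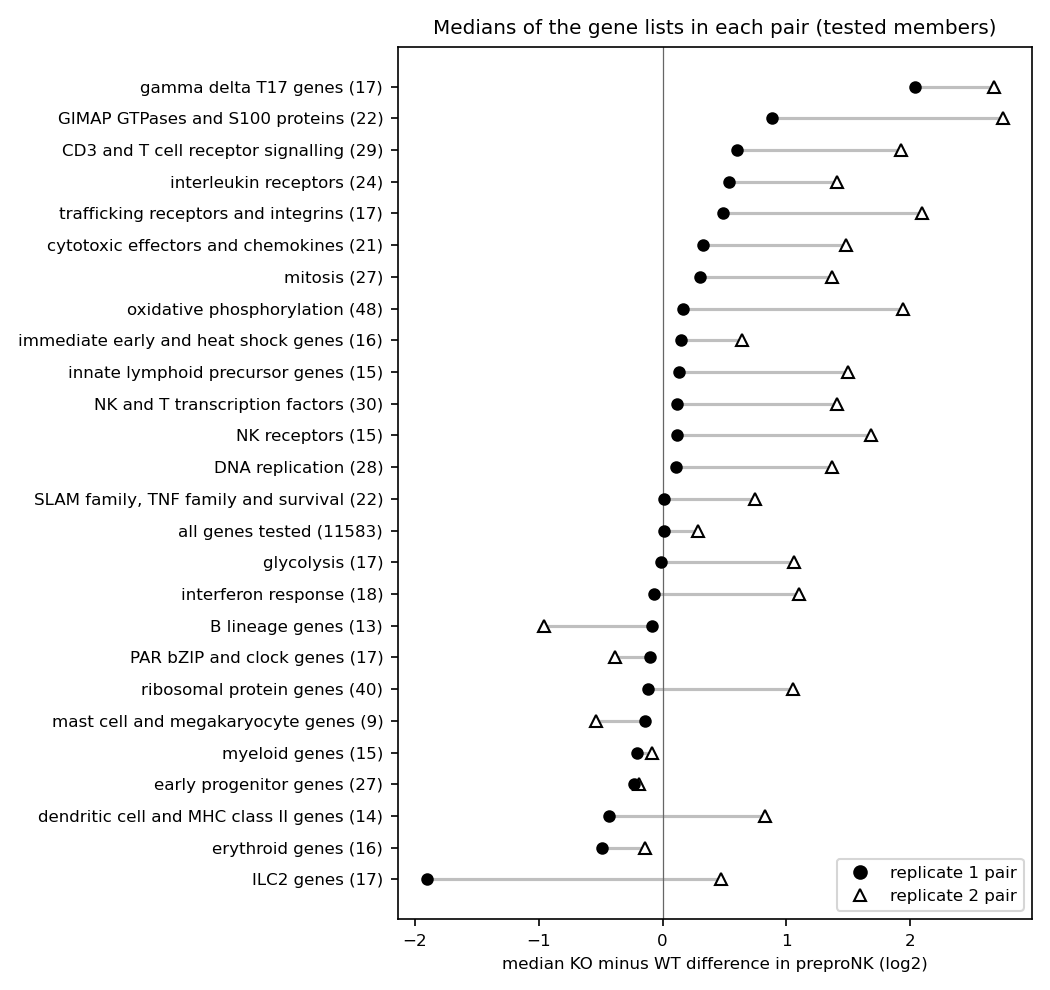
Median KO minus WT difference in preproNK (log2, horizontal axis) of the tested members of each gene list in the replicate 1 pair (filled circles) and the replicate 2 pair (open triangles), with the number of tested members in brackets and all 11583 tested genes as a row of their own. The gamma delta T17 list is far right in both pairs at 2.04 and 2.68, and the ILC2 list is far left in the replicate 1 pair at -1.91 but not in the replicate 2 pair at 0.47.

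Markers of other blood cells that the sort could hold were measured on the same arrays, and their part in the differences was not tested. The early progenitor genes Flt3 and Cd34 were near background in the replicate 1 pair (3.79 and 3.84, and 2.97 and 2.73). In the replicate 2 pair Flt3 was at 4.47 in WT and 4.38 in KO, above the median of each array. The list of 28 measured genes had a summed linear level of 1894 and 1262 on the WT arrays and 2027 and 1526 on the KO arrays. Mpo, a bright member of that sum, was at 8.75 and 5.52 in WT and at 9.40 and 7.16 in KO. By median the list differed by -0.23 and -0.19, with 10 and 9 of 27 tested members higher in KO (51.3% and 57.6% of all tested genes). B lineage genes summed to 457 and 676 in WT and 450.2 and 501.4 in KO, with Ebf1 near background on WT replicate 1 and both KO arrays. Of 13 tested B lineage members 1 was higher alike (1.58% of all tested genes) and 0 lower (0.276%), and the medians were -0.08 and -0.96. That member was Cd79b, at 5.72 and 4.95 in WT and at 6.90 and 6.83 in KO. Myeloid genes summed to 1416 and 612 in WT and 1576 and 1565 in KO, erythroid genes, a sum led by the globin gene Hba-a1, to 3238 and 1322 and to 2274 and 1733, and mast cell and megakaryocyte genes to 1257 and 765 and to 1260 and 933. Dendritic cell and MHC class II genes summed to 827 and 717 in WT and to 506 and 1922 in KO, so KO replicate 2 stood out. By median, erythroid genes differed by -0.49 and -0.14, with 1 (replicate 1) and 6 (replicate 2) of 16 tested members higher in KO (51.3% and 57.6% of all tested genes). Dendritic cell and MHC class II genes differed by -0.43 and 0.83, with 1 and 10 of 14 higher. H2-Ab1 was at 8.97 there and at 5.91 on KO replicate 1, and Lyz2, a myeloid gene, at 9.47 and 8.20. By comparison the CD3 and T cell receptor list summed to 6196 and 2156 in WT and to 10846 and 9378 in KO, and the gamma delta T17 list to 3838 and 1305 and to 10489 and 7891. Xist, the female-specific RNA, was at 8.78 on KO replicate 2 and between 3.33 and 4.20 on the other 3 arrays, and the Y-linked gene Eif2s3y was at 6.96 and 4.19 in WT and at 7.04 and 5.07 in KO. On WT replicate 2 both genes were near background, so the sex of that sample could not be read. In ALP, Xist was at 3.56 and 7.94 in WT and at 3.10 and 9.30 in KO. Xist thus differed with genotype in the preproNK replicate 2 pair, and the part of sex in that pair's differences was not tested.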

How the data were processed

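Expression was measured on 8 Affymetrix arrays. The authors deposited log2 values per probe set, for which the submitters' processing notes name RMA and Partek, with software versions not given in the sources used here. The arrays carry no read depth, and their small number limits the precision. Of 45141 probe sets, 28898 had 1 gene symbol in the platform annotation, 551 several and 15692 none. The probe set with 1 symbol and the highest mean over 8 arrays stood for a gene, which was tested if above the array median on at least 2 arrays. Limma 3.58.1 (R 4.3.3) fitted 4 group means to all 8 arrays (4 residual degrees of freedom), two-sided. Folds given as at least a value set levels under an array's median to that median. The series design ties replicate numbers to processing dates, so the numbers pair the samples. Deviations of same-numbered arrays from group means correlated at 0.149 to 0.205 in pairs with KO preproNK and 0.608 to 0.807 otherwise. The block fits 1 replicate shift common to all 4 groups, so calls made with it rest on a shift that KO preproNK shared only weakly. The main limma fit was tested on simulated data. These had the same spread for every gene and array, no replicate shift and no narrow-range array, so they say nothing of the power in the real data.

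The comparison and its 26 gene lists were chosen with earlier results of these data known. Named genes are a fixed set of NK regulators and list markers, the genes of smallest p in each direction, those with the largest differences alike in both pairs, and up to 4 members per list of the same sign and 2 of opposite signs. Other list members were named after their values were seen. Genes without a probe set of a single symbol, among them Il7r, Tcf7 and Tox, were not analysed here. Alternatives were the block, array weights, the prior, 3 normalizations, the filter, the probe set rule, each array left out and the thresholds for differing alike.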

Additional observations from a re-analysis of the deposited data

How the results depend on the processing

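Of the 15 alternatives to the fit, the count of called genes stayed at 0 in 12, was 10 with the replicate block and 47 with the block and without WT preproNK replicate 2, and ranged from 0 to 2532 when each preproNK array was left out, the highest without WT preproNK replicate 1. Genes at an unadjusted p under 0.05 numbered 625 with all arrays and 2122 with the block. The count of genes differing alike, 215, lay between 172 and 224 over the other normalizations, filters and the mean of all probe sets, was 279 with no limit on the ratio, and became 570 at 0.5 log2 (426 higher, 144 lower) and 39 at 2 log2 (37 higher, 2 lower). Of the 215, 138 were also alike after quantile normalization and 153 after cyclic loess. It cannot be computed with an array left out. Median centring moved the replicate 2 median of all genes from 0.29 to 0.55, and cyclic loess to -0.11. Of 390 list medians 15 turned sign, 5 of them in dendritic cell genes, 3 in ribosomal protein genes and 1 in ILC2 genes. Most lists had 0 such turns, the gamma delta T17, CD3, NK receptor, cytotoxic, interleukin receptor and trafficking lists among them. So did the oxidative phosphorylation, glycolysis, mitosis, DNA replication, interferon response, B lineage and erythroid lists, so a kept sign is not particular to the former. With 2 arrays per group, array weights cannot part the WT arrays, since both received 0.314. The limits are 2 arrays per genotype, 1 of them narrow in range, no detection calls and probe sets of a gene that disagree.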

Other observations

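Beyond the ILC2 list, several genes chosen after their values were seen were highest on WT preproNK replicate 1 of the 4 preproNK arrays. Rnf128, a ubiquitin ligase that limits T cell activation, was at 7.94 on that array and at 3.63, 4.17 and 3.40 on WT replicate 2 and KO replicates 1 and 2. Vipr2, a receptor for a neuropeptide of the gut, was at 7.30 against 4.55, 3.65 and 4.04. Cd81, a tetraspanin, was at 8.61 against 5.07, 5.40 and 6.20, and Cysltr1, a leukotriene receptor, at 8.80 against 3.37, 6.96 and 6.07. KO minus WT in the replicate 1 pair was -3.77 log2 for Rnf128, -3.66 for Vipr2, -3.22 for Cd81 and -1.84 for Cysltr1, and the replicate 2 differences of these genes were -0.22, -0.50, 1.13 and 2.70. For each of them the WT arrays differed from each other by more than WT and KO did in the replicate 2 pair.

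The variable segment Trgv1 of the gamma T cell receptor locus, also chosen after its value was seen, was at 10.24 and 6.54 in WT and at 10.15 and 10.18 in KO. It was thus level and bright in the replicate 1 pair, in which Sox13 differed by 3.28 and Cd3d by 2.08.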
